A study of Mus musculus with 11 samples.

Results

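In all, 7 long noncoding RNAs (lncRNAs) were measured in epithelium of the gingiva of langerin-DTR mice: Malat1 and Neat1, which are retained in the nucleus, and the snoRNA host genes Gas5, Snhg1, Snhg3, Snhg8 and Snhg12. They were chosen by name, as autosomal noncoding RNAs meant to serve as an index of the nuclear share of RNA. Whether each of them does so was not tested. All 7 are among the 19170 genes that have a value of the 55414 genes listed. In this strain langerin drives the diphtheria toxin receptor, so that diphtheria toxin (DT) removes cells that express langerin, of which Langerhans cells (LCs) are the main type in stratified epithelium. After birth, 5 mice were injected with PBS and 6 with DT on day 17, day 24 and day 31, and epithelium was taken at an age of 8 weeks. Both groups carry the same transgene, and each library is labelled as 1 mouse. The comparison asks how the absence of LCs during weaning bears on the epithelial transcriptome of the adult.

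Malat1 accumulates in nuclear speckles, where splicing factors are stored, and Neat1 is the scaffold on which paraspeckles form. Neither RNA is translated. The host genes work in another way: their introns hold small nucleolar RNAs (snoRNAs), which guide chemical modification of ribosomal RNA, while the spliced exons have no conserved protein product, often reach the cytoplasm and are then degraded by nonsense-mediated decay. The annotation places 10 genes typed as snoRNA inside Gas5 (1 of them under a microRNA name), 8 inside Snhg1, 5 inside Snhg12, 2 inside Snhg3 and 1 inside Snhg8. Libraries were made from poly(A)-selected RNA, so the levels given are those of the host transcripts or fragments with A-rich sequence and not those of the snoRNAs. Location within the cell was not measured.

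How these RNAs end bears on what poly(A) selection can capture, and the sequences of the ends are shown for that reason. Malat1 and the long form of Neat1 are cut by RNase P and carry no poly(A) tail, but both have an A-rich tract encoded in the genome. The short form of Neat1 is polyadenylated. The 30 bases that finish with the tract in Malat1 and in the long Neat1 transcript, and the last 30 bases of the short Neat1 transcript, are given 5′ to 3′ from GENCODE release M21 on GRCm38. They lie on the minus strand at chr19:5795982-5796011, chr19:5824708-5824737 and chr19:5842307-5842336. Capitals mark the end of the encoded tract (GCAAAA) in the first and second sequences and the polyadenylation signal (AATAAA) in the third.
Malat1 tract: ttccctagctttaaaaaaaaaaaaGCAAAA
Neat1 long end: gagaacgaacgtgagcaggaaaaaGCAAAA
Neat1 short end: tttacagcaaAATAAAggtttgagattgaa
AATAAA was searched on the transcript strand, and 23.3% of 141722 annotated transcripts hold it in their last 30 bases. The short Neat1 end holds AATAAA, and the windows of Malat1 and the long Neat1 do not. Counts per gene do not tell the Neat1 forms apart, and strand-aware counting is not stated in the sources used here.

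Transcripts of some snoRNA host genes, like those of ribosomal protein genes, start with a run of pyrimidines. RefSeq (GRCm38.p6) gave a start window for 6 of the 7 genes, with 2 starts for Gas5. Each line shows 10 bases before the annotated start and 20 bases from it on, and capitals mark the run of C or T that covers the first transcribed base. The windows lie at chr1:161035156-161035185 on the plus strand for the second start of Gas5, chr19:8723477-8723506 on the plus strand for Snhg1, chr3:123508317-123508346 on the minus strand for Snhg8, chr4:132308668-132308697 on the plus strand for Snhg12, chr4:132353667-132353696 on the minus strand for Snhg3 and chr19:5802653-5802682 on the minus strand for Malat1.
Gas5 start: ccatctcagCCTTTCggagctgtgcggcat
Snhg1 start: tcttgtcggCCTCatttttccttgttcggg
Snhg8 start: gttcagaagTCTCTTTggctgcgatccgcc
Snhg12 start: ttctcagTCCTTTCTCgcttcatccgcggt
Snhg3 start: gaccacgcctgacttccgggcgttacttaa
Malat1 start: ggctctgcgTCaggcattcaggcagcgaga
A run of at least 6 pyrimidines covers the start in Gas5, Snhg8 and Snhg12, the run is 4 bases long in Snhg1 and 2 in Malat1, and neither Snhg3 nor the first start of Gas5 has one. Of all 32851 start windows, 7.25% hold a run of at least 6 and 14% one of at least 4. A run of at least 6 stands in 3 of 21 windows of protein-coding host genes (14.3%) and in 3 of 14 windows of other host lncRNAs (21.4%). A run says only what letters stand at the annotated start.

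Between 17509328 and 24325513 reads were counted per mouse. These gave 5133 to 23792 reads per mouse for Malat1, the deepest of the 7, and 65 to 182 reads for Snhg3, the shallowest, so that counting error alone was at most 12.4% of a value. Values are given as normalized counts, that is, counts that the authors divided by a size factor for each mouse. PBS 3 and PBS 5 stood apart from the other PBS libraries on the first principal component of the most variable genes. They lay at 17.2 and 20.9, the other PBS mice between -13.0 and -11.9 and the DT mice between -9.09 and 10.5. DT 5, at 10.5, lay nearer to PBS 3 than to the next DT mouse, at 1.80. All 7 LC markers checked were higher in PBS 3 and PBS 5 than in each of the other PBS mice. Their summed level was 4998 and 4040 normalized counts in PBS 3 and PBS 5, and 2159 to 2737 in PBS 1, 2 and 4. In the DT mice it was 1598 to 3054. The log2 fold change was negative in 7 of 7 (median -0.44), against 52.7% of all genes, and 0 passed the threshold. Of the 7, 2 (Csf1r and Cd74) had an unadjusted p under 0.05 in limma, against 6.19% of all genes with DT lower. Langerin itself (Cd207) had 23.9 ± 13.4 normalized counts after PBS and 18.4 ± 1.99 after DT (-0.19, limma adjusted p = 0.853). The paper reports that LC frequencies had returned to normal by the age sampled here. In bulk tissue, fewer cells of a type and less RNA per cell cannot be told apart. Keratinocyte markers summed to between 2540000 and 2817000 normalized counts in the 11 mice, and skeletal muscle markers to at most 89.1. The methods describe male mice and the reporting summary both sexes, and the labels give none. Xist was between 7149 and 22725 normalized counts in all 11 mice, while the Y-linked Kdm5d, named after its values were seen, was at most 3.38.

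Malat1, the RNA of nuclear speckles, had the most reads of the 7. Its normalized counts were 16213, 16792, 7878, 21666 and 10332 in PBS 1 to PBS 5, and 10174, 11340, 9773, 9041, 5036 and 8102 in DT 1 to DT 6. PBS 1, 2 and 4 were above every DT mouse, while PBS 3 and PBS 5 lay among the DT mice and DT 5 was lowest of all, so that the groups overlapped. The mean was 14580 ± 5494 (SD, n = 5) in the PBS mice and 8911 ± 2187 (SD, n = 6) in the DT mice. The log2 fold change was -0.66 (standard error 0.23, 95% confidence interval -1.16 to -0.17), which did not pass the threshold of an adjusted p under 0.1 (limma, unadjusted p = 0.0116, adjusted p = 0.282). All 6 DT mice were below the mean of the PBS mice.

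Neat1, transcribed from the same strand as Malat1 and its next measured gene on chromosome 19, had the widest spread of the 7. Its normalized counts were 7313, 9546, 3049, 7615 and 2519 in PBS 1 to PBS 5 and 3635, 3961, 4436, 3787, 1706 and 2316 in DT 1 to DT 6. As for Malat1, PBS 1, 2 and 4 were above all DT mice and PBS 3 and PBS 5 were within the range of the DT mice. The log2 fold change was -0.75 (standard error 0.32, 95% confidence interval -1.44 to -0.06), again short of the threshold (limma, unadjusted p = 0.0347, adjusted p = 0.386). The ratio of Malat1 to Neat1 counts, which is not scaled by length and compares mice only, was 1.76 to 4.10 in the PBS mice and 2.20 to 3.50 in the DT mice, ranges that overlap.

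**Figure D1:**
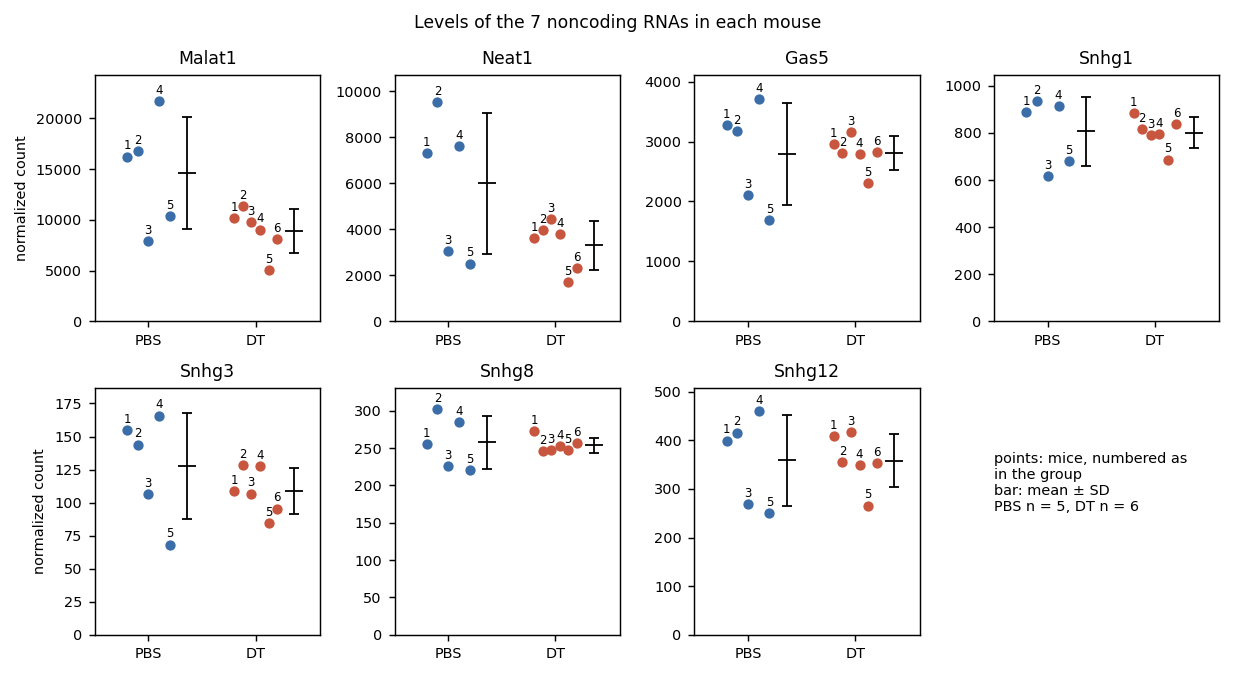
Normalized count of each RNA (vertical axes, from 0) in each PBS mouse (blue, n = 5) and DT mouse (red, n = 6), with mouse numbers at the points and the mean ± SD as a black bar. PBS 3 and PBS 5 are the lowest PBS mice in every panel, and the groups overlap in every panel.

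Taken as a share of all normalized counts, Malat1 made up 0.0722% ± 0.0274 (SD, n = 5) in the PBS mice and 0.0436% ± 0.0108 (SD, n = 6) in the DT mice. The share of Neat1 was 0.0298% ± 0.0153 (SD, n = 5) in the PBS mice and 0.0162% ± 0.00514 (SD, n = 6) in the DT mice. The 5 host genes together made up 0.0215% ± 0.00579 (SD, n = 5) and 0.0211% ± 0.00206 (SD, n = 6). The ranges of the groups overlapped for each of these shares, which were not tested. Mitochondrially encoded mRNAs, which lie outside the nucleus, took 1.63 to 4.15% of the counts after PBS and 1.34 to 2.24% after DT. Of these mRNAs, 12 of the 12 with values had a negative log2 fold change, against 52.7% of all genes. Only mt-Co2 passed the threshold (-1.15, limma adjusted p = 0.0549), at a low level of 46.75 ± 14.89 normalized counts after PBS and 19.95 ± 4.01 after DT. The abundant ones that make up most of the share did not pass.

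Gas5, a growth arrest-specific transcript that can bind the glucocorticoid receptor, had the most reads of the host genes. PBS 1 to PBS 5 had 3268, 3172, 2111, 3711 and 1694 normalized counts, while the lowest, median and highest of the DT mice were 2306, 2819 and 3154. All DT mice were within the range of the PBS mice, and the difference was 0.06 on the log2 scale (95% confidence interval -0.28 to 0.40, limma adjusted p = 0.92). In folds, this interval runs from 0.825 to 1.32.

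Snhg1 hosts box C/D snoRNAs, which guide methylation. PBS 1 to PBS 5 had 889, 934, 618, 912 and 679 normalized counts, against 687, 805 and 884 as the lowest, median and highest of the DT mice. The PBS mice enclosed all DT mice, and the log2 fold change was 0.01 (95% confidence interval -0.21 to 0.23, limma adjusted p = 0.988). Snhg12, which hosts both box C/D and box H/ACA snoRNAs, had 399, 416, 269, 460 and 250 normalized counts in the PBS mice, against 266, 355 and 417 as the lowest, median and highest after DT. Its log2 fold change was 0.03 (95% confidence interval -0.30 to 0.35, limma adjusted p = 0.971), with all DT mice inside the range of the PBS mice.

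Snhg8 and Snhg3 host box H/ACA snoRNAs, which guide pseudouridylation or take part in processing of ribosomal RNA. The normalized counts of Snhg8 were 256, 302, 226, 285 and 220 in the PBS mice. In the DT mice it lay between 246 and 273, which is the narrowest range of the 7 RNAs. Its log2 fold change of -0.01 (95% confidence interval -0.20 to 0.17, limma adjusted p = 0.975) has the tightest interval of the set. Snhg3 had 155, 144, 107, 166 and 68.2 normalized counts in the PBS mice and 84.4, 108 and 128 as the lowest, median and highest after DT. Its log2 fold change was -0.18 (95% confidence interval -0.60 to 0.23, limma adjusted p = 0.779). Exons of Snhg3 overlap those of Rcc1 on the same strand, so that reads could be split or lost between them and the values of Snhg3 are uncertain.

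In all, 0 of the 7 RNAs passed an adjusted p under 0.1 in limma, against 0.558% of all 19170 genes tested, and 2 of 7 (Malat1 and Neat1) had an unadjusted p under 0.05, against 11.5% of all genes, or 6.19% with DT lower. The log2 fold change was negative for 4 of the 7, against 52.7% of all genes, and its median was -0.01 over the 7 and -0.01 over all genes. For none of the 7 was the difference between DT and PBS large enough, against the spread between mice, to pass the test over all genes. These are fold changes of log2(normalized count + 1), a scale that draws those of low genes towards 0.

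What the 7 RNAs shared was the pattern among the PBS mice. PBS 3 and PBS 5 were the lowest PBS mice for 7 of 7 RNAs, whereas 20.4% of all 19170 genes had both below the other PBS mice and 19.7% both above them. As a ratio, the gap was widest for Neat1, with at most 3049 normalized counts in PBS 3 and PBS 5 and at least 7313 in PBS 1, 2 and 4. For Malat1 the corresponding values were 10332 and 16213, and for Gas5 2111 and 3172. For Snhg8 they were 226 and 256. Among the DT mice, DT 5 was lowest for 6 of 7 RNAs, the exception being Snhg8, while DT 5 was the lowest DT mouse for 16.4% of all genes. The 7 RNAs share libraries, depth and scaling, and these counts are a description of them.

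**Figure D2:**
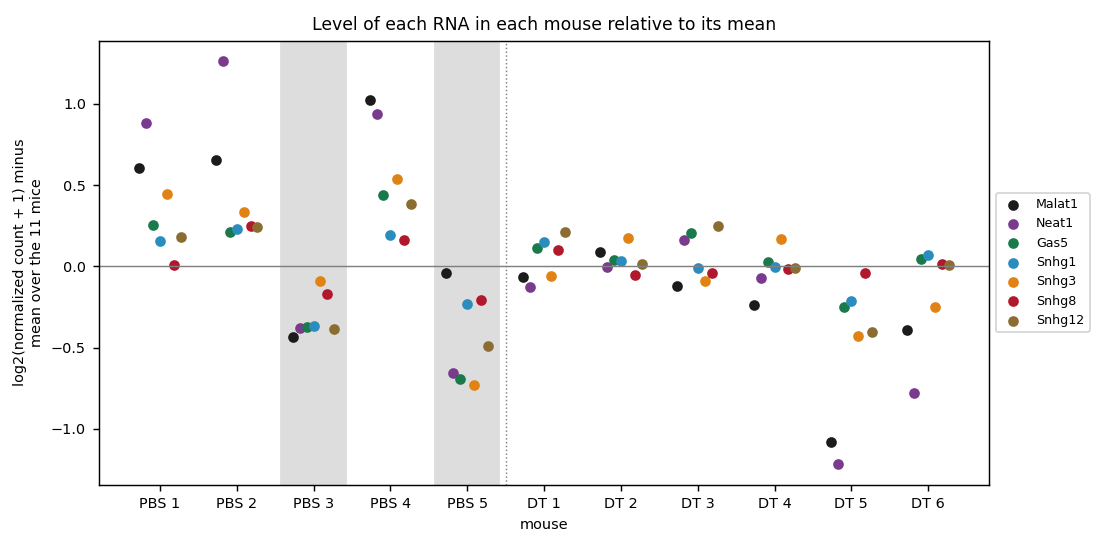
Log2(normalized count + 1) of each RNA minus its mean over the 11 mice (vertical axis) in each mouse (horizontal axis), with PBS 3 and PBS 5 shaded. All 7 RNAs are below their means in PBS 3 and PBS 5, and Malat1 and Neat1 reach lowest in DT 5.

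The spread between mice of 1 group was itself large for these RNAs. Among the 10019 genes whose mean reached 100 normalized counts, the median SD of the log2 values was 0.135 over the PBS mice and 0.0952 over the DT mice. Neat1 had 0.866 and 0.538, and 0.369% and 0.579% of these genes had a larger SD. Malat1 had 0.589 and 0.415, exceeded by 1.11% and 1.06% of the genes. Gas5 and Snhg3 were also variable among the PBS mice, with 0.479 and 0.522, but less so among the DT mice, with 0.151 and 0.234. Snhg8 was at the other end: its SD of 0.0564 over the DT mice was exceeded by 84.0% of the genes.

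The comparison was repeated without PBS 3 and PBS 5, which lay highest on the first principal component of the most variable genes. Since they are the lowest PBS mice for all 7 RNAs, the control group of 3 that remains is a selected one, and lower fold changes follow from the selection. The values describe how far the result rests on these mice and are no test of DT against PBS. Without them Malat1 had a log2 fold change of -1.06 (95% confidence interval -1.45 to -0.68, limma adjusted p = 0.00719) and Neat1 of -1.37 (95% confidence interval -1.85 to -0.88, limma adjusted p = 0.00705). Gas5 (-0.27, limma adjusted p = 0.0588) and Snhg3 (-0.52, limma adjusted p = 0.0368) passed the threshold as well. Snhg1 (-0.19, limma adjusted p = 0.12), Snhg8 (-0.14, limma adjusted p = 0.299) and Snhg12 (-0.26, limma adjusted p = 0.198) did not. So 4 of the 7 were called, all lower after DT, in a fit that called 10.3% of all genes and 5.45% of all genes as lower. The sign of Gas5, Snhg1 and Snhg12 turned from positive to negative with this choice.

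**Figure D3:**
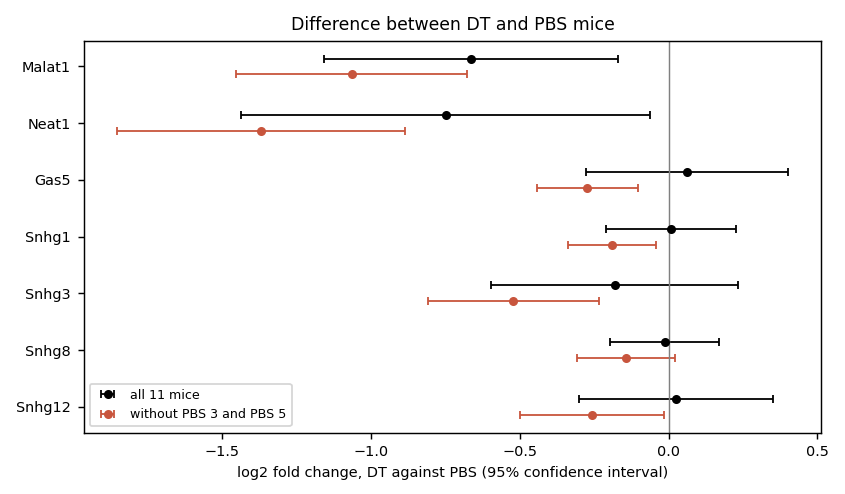
Log2 fold change of DT against PBS for each RNA (horizontal axis) with its 95% confidence interval from limma, over all 11 mice (black) and without PBS 3 and PBS 5 (red). Without these mice every estimate moves to lower values, from -0.66 to -1.06 for Malat1 and from -0.75 to -1.37 for Neat1.

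Whether the 7 RNAs varied together was examined within the DT mice (n = 6), because the PBS mice fall into sets of 3 and 2 that are too small for a correlation of their own. Of the 21 pairs, 20 had a positive Pearson correlation of the log2 values, from -0.03 to 0.985 with a median of 0.776, but 0 pairs passed a p under 0.05 after adjustment over the 21 (exact permutation test, two-sided; 6 pairs at an unadjusted p under 0.05). The closest pair was Gas5 and Snhg12 (r = 0.985, exact permutation p = 0.00278, adjusted p = 0.0584). Malat1 and Neat1 followed each other with r = 0.909 (exact permutation p = 0.0167, adjusted p = 0.139). Pairs with Snhg8, which hardly varied among the DT mice, were between -0.03 and 0.689. Without the 2 mice farthest from the median of the first gene of each pair, the median over the 21 pairs was 0.316. Leaving out the mice at the extremes narrows the range, which by itself lowers a correlation, and only 4 mice remain.

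**Figure D4:**
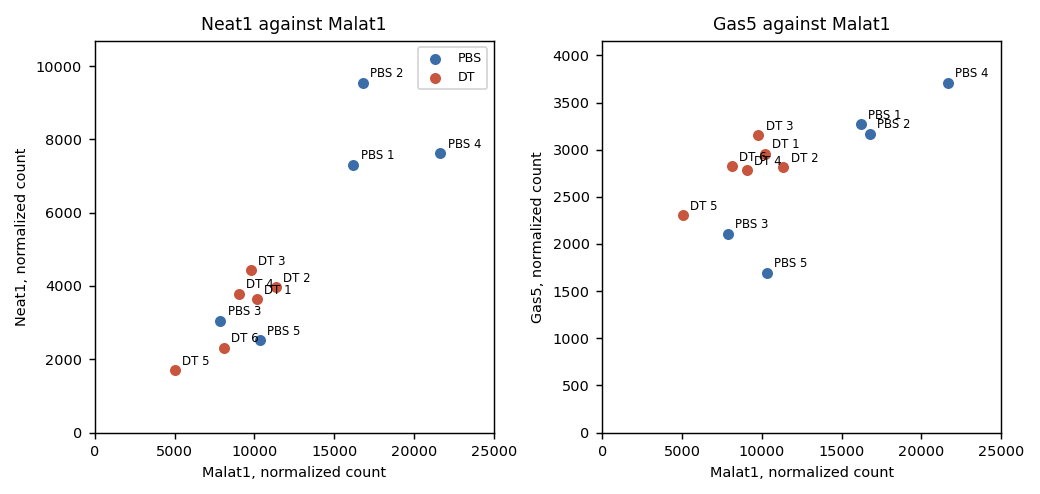
Normalized counts of Neat1 (left) and Gas5 (right) against Malat1 in each mouse, blue for PBS and red for DT, on linear axes from 0. PBS 1, 2 and 4 form the upper right set in both panels. At a like level of Gas5 (3154 and 3172), DT 3 has less Malat1 (9773) than PBS 2 (16792). The other DT mice have no PBS mouse as close to them in Gas5.

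The ratio of Malat1 to Gas5, which does not depend on the scaling of a library, was between 3.73 and 6.10 in the PBS mice and between 2.18 and 4.03 in the DT mice. Thus PBS 3, at 3.73, was the PBS mouse that lay within the range of the DT mice. This ratio was formed after the values were seen and was not tested.

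Levels of different genes are compared per kilobase of annotated exon, with the exons of all transcripts of a gene merged. For Snhg1, Snhg8 and Snhg12 this length equals the whole gene (2969, 853 and 2402 bases), introns included. For Gas5 it is 3760 of 4118 bases. A shorter, spliced length would give these genes higher values, so the order rests on the length used. On this scale the order after PBS was Malat1 (2090 ± 787 normalized counts per kilobase, SD, n = 5), Gas5 (742 ± 226), Snhg8 (302 ± 41.9), Neat1 (289 ± 148), Snhg1 (272 ± 49.5), Snhg12 (149 ± 39.0) and Snhg3 (130 ± 40.7). Snhg8, Neat1 and Snhg1 did not differ beyond their spread, nor did Snhg12 and Snhg3. After DT Neat1 stood at 159 ± 50.9 (SD, n = 6), next to Snhg12 at 149 ± 22.5, and the other 6 RNAs kept their order. The value for Neat1 rests on the length of its long form, and with the 3004 bases of the short form it would be 2000 after PBS and 1100 after DT.

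The genes whose log2 values were most like those of each RNA over the 11 mice, among genes whose mean reached 100 normalized counts, are given as a description. For Malat1 they were Xist (r = 0.979), the lncRNA that coats the inactive X chromosome, Son (r = 0.961), a core protein of nuclear speckles, and Zbtb48 (r = 0.942), a zinc finger protein of telomeres. Normalized counts of Xist were 19905, 19952, 8906, 22725 and 12161 in PBS 1 to PBS 5 and 10846, 13137, 11700, 12387, 7149 and 9661 in DT 1 to DT 6. As for Malat1, PBS 3 and PBS 5 were the lowest PBS mice and DT 5 was lowest of all, and its log2 fold change was -0.57 (limma adjusted p = 0.302). Neat1 was most like Mir100hg (r = 0.982), a microRNA host lncRNA, Crebzf (r = 0.966) and Snapc3 (r = 0.964), a subunit of a complex that binds promoters of small nuclear RNA genes.

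The host genes had other companions. Gas5 was most like Ccnl1 (r = 0.982), Hnrnph1 (r = 0.979) and Safb2 (r = 0.978), which encode nuclear proteins of splicing and chromatin. Snhg12 was most like Klhl17 (r = 0.974), Polrmt (r = 0.969), the RNA polymerase of mitochondria, and Wnk4 (r = 0.961). Snhg1 was most like Nopchap1 (r = 0.949), a chaperone in the assembly of snoRNA-protein particles, Slc4a3 (r = 0.948) and Guf1 (r = 0.948). Snhg3 was most like Iqank1 (r = 0.955), Tpcn2 (r = 0.951) and Cntnap1 (r = 0.946), and Snhg8 most like Akap8 (r = 0.932), 2310061I04Rik (r = 0.919) and Ythdc2 (r = 0.90). The number of genes with r above 0.9 ran from 3 for Snhg8 to 178 for Gas5, of 10018 compared. None of these companions passed the threshold between DT and PBS.

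Apart from Malat1 and Neat1, which are neighbours of each other, the genes next to the 7 RNAs correlated with them at -0.479 to 0.67 over the 11 mice. The highest of these values was that of Neat1 with Frmd8os, a gene of 3.20 ± 0.986 (SD, n = 5) normalized counts after PBS. Slc3a2, which lies 106 bases from Snhg1 on the opposite strand, correlated with it at -0.479. For Zbtb37, which overlaps Gas5 on the opposite strand without sharing exons, the log2 fold change was -0.37 (limma adjusted p = 0.276). Malat1 overlaps Gm37376 on the opposite strand, a gene of 18.4 ± 8.34 (SD, n = 5) normalized counts after PBS. None of the neighbours or overlapping genes passed the threshold.

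Lists of related genes place the 7 RNAs among their partners. Of the other host lncRNAs, 15 of 16 had values, 0 passed the threshold, 11 had a negative log2 fold change and the median was -0.07. The smallest p among them were those of Zfas1, with 490.9 ± 47.0 normalized counts after PBS and 568.6 ± 46.3 after DT (0.21, limma adjusted p = 0.279), and of Snhg14, with 10.6 and 7.18 (-0.57, limma adjusted p = 0.441). PBS 3 and PBS 5 were the lowest PBS mice for 11 of these 15 genes, and without these mice 6 of the 15 were called, all lower after DT, where 5.45% of all genes were called lower. For genes lowest in PBS 3 and PBS 5, leaving these mice out moves the difference towards lower values by construction. The protein-coding host genes, mostly genes of ribosomal proteins and translation factors, had a median log2 fold change of 0.11. For 26 of 28 it was positive, where 52.7% of all genes had a negative value, and 0 passed the threshold. Rpl5 had the smallest p, with 15500 ± 2318 normalized counts after PBS and 19530 ± 1087 after DT (0.34, limma adjusted p = 0.118), followed by Hspa8 (0.25, limma adjusted p = 0.196). PBS 3 and PBS 5 were the highest PBS mice for 14 of these 28 genes and the lowest for 6, against 19.7% and 20.4% of all genes. Without PBS 3 and PBS 5, 19 of the 28 were called higher and 2 lower, where 4.81% of all genes were called higher. For genes highest in these mice, leaving them out moves the difference towards higher values by construction, so this count is no test of DT against PBS.

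Of other lncRNAs, 13 of 16 had values and Kcnq1ot1, an imprinted RNA that stays at its own locus, was the only one of them past the threshold. It had 151 to 318 normalized counts in the PBS mice and 71.6 to 148 in the DT mice, so the groups did not overlap, as in 0.751% of all genes with DT lower, and fell by 0.99 on the log2 scale (standard error 0.19, limma adjusted p = 0.0488). PBS 3 and PBS 5 were the lowest PBS mice here too. Norad, a cytoplasmic lncRNA, had a log2 fold change of -0.19 (limma adjusted p = 0.203).

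The mRNAs of proteins that build the bodies in which Malat1 and Neat1 reside were measured as well. None of 15 mRNAs of nuclear speckle proteins passed the threshold, and Son (-0.24, limma adjusted p = 0.359) and Srsf2 (-0.22, limma adjusted p = 0.395) had the smallest p. For 15 of 15, against 20.4% of all genes, PBS 3 and PBS 5 were the lowest PBS mice. Without them 11 were called lower and 0 higher, against 5.45% and 4.81% of all genes, a direction that leaving out the lowest controls fixes. None of 15 mRNAs of paraspeckle proteins passed, and the value was 0.16 for Nudt21 (limma adjusted p = 0.291), while PBS 3 and PBS 5 were lowest for 7 of them. The mRNAs of proteins that assemble with snoRNAs had positive log2 fold changes in 16 of 17 cases, where 52.7% of all genes had a negative value. Their median was 0.09, with 0 past the threshold, Shq1 (0.36, limma adjusted p = 0.255) and Pih1d1 (0.16, limma adjusted p = 0.448) being nearest. Of the mRNAs of 14 factors of nonsense-mediated decay, which degrades spliced host transcripts, 0 passed. The values were -0.27 for Smg1 (limma adjusted p = 0.196) and 0.09 for Upf3a (limma adjusted p = 0.584).

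**Figure D5:**
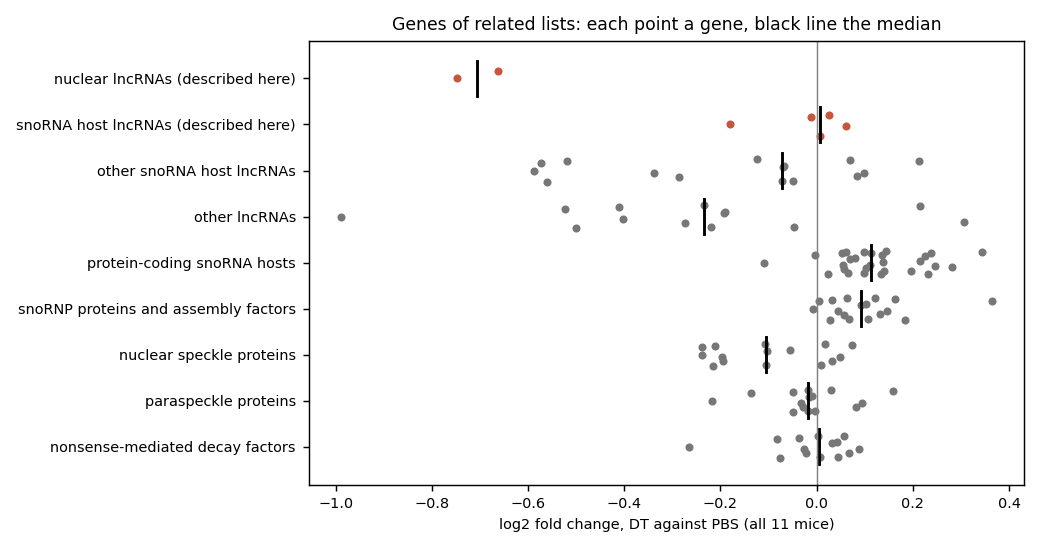
Log2 fold change of DT against PBS over all 11 mice (horizontal axis) for each gene of the related lists (rows), with the median of a list as a black line and the 7 RNAs described here in red. Malat1 and Neat1 lie at -0.66 and -0.75, the 5 host lncRNAs between -0.18 and 0.06, and 26 of 28 protein-coding hosts above 0.

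Other genes moved with the groups. Immediate early genes, which respond quickly to stimuli of many kinds, rose in 11 of 16 cases after DT, against 0.313% of all genes, Fos by 1.70 on the log2 scale (limma adjusted p = 0.00897) and Ier2 by 0.75 (limma adjusted p = 0.00477). The other 9 were Btg2, Junb, Dusp1, Jun, Atf3, Zfp36, Egr1, Egr2 and Klf6, which rose by between 0.51 (Klf6) and 2.68 (Atf3). The part of these genes, of the mitochondrial share and of the LC markers in the levels of Malat1 and Neat1 was not tested.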

How the data were processed

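Poly(A)-selected stranded RNA of gingival epithelium was sequenced from 5 PBS and 6 DT mice. According to the submitters' processing notes the authors used cutadapt 2.10, TopHat2 2.1.1 on GRCm39, HTSeq 2.01 and DESeq2 1.36.0. The methods of the study name an earlier build and other versions, and trimming after a guide for 3′ end libraries, in which case levels per kilobase would not be comparable. The deposited values are normalized counts, that is, counts per gene divided by a size factor. Values of 100% of low genes were whole multiples of 1 read (tolerance 0.1), which gave the depth.

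A linear model with an intensity trend (limma 3.58.1, R 4.3.3) was fitted to log2(normalized count + 1). Its p-values were adjusted over 19170 genes by Benjamini-Hochberg, with a threshold of 0.1, all 11 mice and no covariate. In simulated data for this comparison, 196 of 200 genes changed by 1 on the log2 scale were recovered, with 29 calls among 18970 unchanged genes. For RNAs as variable as Malat1 and Neat1, or for smaller changes, this share says nothing. Correlations were tested by permutation within groups over all 11 mice, as planned, and by exact permutation over the DT mice. Intervals and counting errors take no account of preparation.

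The 7 RNAs and the lists of related genes were chosen with earlier results of these data known. Named genes were the 7 RNAs, in each other list every gene past the threshold or else the 2 with the smallest p, the nearest gene with values on each side, and the 3 genes most like each RNA. Of the neighbours only some are named in the text, and 3 genes that the rule names are not reported here. Marker lists of keratinocytes, LCs, skeletal muscle, leukocytes, fibroblasts, endothelium, nerve and melanocytes, salivary gland and erythroid cells held 0 genes past the threshold. Mice with the same number in the sample titles were at most weakly alike (correlations of deviations from -0.233 to 0.324), which does not exclude a pairing. Gene structure, snoRNA genes and neighbours came from GENCODE M21 on GRCm38, where 99.7% of the genes with values had a match, and start windows from RefSeq. Alternatives were a filter on low values, other pseudocounts, quantile normalization, TMM scaling, scaling without mitochondrial genes, array weights, replicate blocks and leaving out mice.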

Additional observations from a re-analysis of the deposited data

How the results depend on the processing

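Malat1, Neat1 and Snhg3 had negative log2 fold changes in all 21 alternatives run for each and passed the threshold in 1 of the 21, the fit without PBS 3 and PBS 5 (-1.06, -1.37 and -0.52). Leaving out each mouse in turn gave -0.86 to -0.50 for Malat1, -1.02 to -0.53 for Neat1, -0.39 to -0.07 for Snhg3, -0.10 to 0.18 for Gas5, -0.084 to 0.065 for Snhg1, -0.067 to 0.047 for Snhg8 and -0.094 to 0.13 for Snhg12. The sign of the other host genes, none of them called over all mice, turned under several settings. With array weights the log2 fold change was -0.045 for Gas5, -0.058 for Snhg1 and -0.068 for Snhg12. Scaled to the total without mitochondrial genes it was -0.029 for Snhg1 and -0.010 for Snhg12, under quantile normalization -0.0044 for Snhg1 and 0.0011 for Snhg8, and with the replicate block on the title number -0.0057 for Snhg1. Without PBS 3 and PBS 5 it was -0.27 for Gas5, -0.19 for Snhg1 and -0.26 for Snhg12. The cause was not tested.

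Over all genes, 60 were called higher and 47 lower. With the total without mitochondrial genes the split was 38 higher and 53 lower, with array weights 110 and 79, and without PBS 3 and PBS 5 together 922 and 1045. The replicate block on the title number gave 24 higher and 11 lower, and that on the library number gave 0 and 0, with 594 and 810 genes at an unadjusted p under 0.05. Low correlations between mice of the same number do not exclude that the numbers pair the mice. Leaving out single mice gave 19 to 155 higher and 8 to 104 lower calls. The count moved by over 1.5 times in at least 1 direction without PBS 1, 2, 4 or 5 or DT 1, 3, 4, 5 or 6. The mean share of counts over all mice was 0.0566% for Malat1 and 0.0223% for Neat1, 0.0515 to 0.0598% and 0.0199 to 0.0238% without single mice, and 0.088% and 0.0348% where the 100 most abundant genes were left out of the total. The median correlation between the RNAs was 0.868 over the 11 mice with group means removed, 0.774 without that, 0.782 without the 2 farthest mice of each pair, and, added after the data were seen, 0.776 in the DT mice and 0.316 in these without the 2 farthest. In the planned test over the 11 mice (permutation within groups), 17 of the 21 pairs had an adjusted p under 0.05 by Pearson correlation and 14 by Spearman correlation. The values over 11 mice span the separate sets of PBS mice, so that test cannot tell shared variation from the split between these sets. Tests on counts with edgeR and DESeq2 were planned and not run, since the deposited values were treated as normalized. For Snhg3, with as few as 65 reads in a mouse, depth limits the precision.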
